A study of Homo sapiens with 12 samples.

Results

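The genes described here are 10 that T cells and cytotoxic lymphocytes use: CD3D, CD3E, CD3G and CD247 (chains of the T-cell receptor complex), CD2, CD4, LCK, ZAP70, PRF1 and GZMB. They were chosen by name, with no measured value in the rule, as the rows of the deposited array table whose platform annotation gives 1 of these symbols. All 10 have a row of their own among 20546 rows with a gene symbol and 32321 rows in all. The table holds 12 whole-transcript Affymetrix arrays of L-428 and of L-1236, both established lines from Hodgkin lymphoma, a tumour that arises from B cells. The groups are L-428 tGFP/EBF1, L-428 tGFP, L-1236 tGFP/EBF1 and L-1236 tGFP, with 3 arrays each. Cells of the EBF1 groups received a vector in which the fluorescent protein tGFP and EBF1, a transcription factor of early B-cell development, are joined by an internal ribosome entry site, and control cells received tGFP alone. Every group was grown for 8 days after transduction and sorted for tGFP, so the controls carry the marker protein too. Each line stands for 1 tumour, and no unsorted or untransduced cells are analysed here. The labels call the samples of a group independent without saying what was repeated, so p-values measure only the spread between these samples. Precision is limited by the number of arrays.

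In T cells, the receptor's antigen-binding chains signal through the CD3 chains and CD247, whose tails are phosphorylated by the kinase LCK and then bound by the kinase ZAP70. CD4 and CD2 are surface molecules that help the T cell engage the cell it contacts, and CD4 also brings LCK to the receptor. Cytotoxic lymphocytes kill with granules that hold perforin, the pore-forming product of PRF1, and granzyme B, the protease encoded by GZMB. Hodgkin tumour cells have lost much of the B-cell programme and can carry genes of other lineages, and the 2 pairwise comparisons of the study ask what EBF1 changes in them.

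Start-site windows of 300 bases (250 before and 50 after the start) were read from RefSeq, build GRCh38.p14, where 7 of the 10 genes have 10 windows. CD4, CD3E and CD3G had no window among those read, so CD4 is not shown although it differed with EBF1 in L-1236. PRF1 and CD3D are shown because EBF1-transduced cells differed from controls in them, and CD247 and LCK were added after their values were seen, CD247 for its difference between the lines and LCK for its match to an EBF1 motif core. The windows lie at chr10:70602692-70602991 (minus strand) for PRF1, chr11:118342656-118342955 (minus) for CD3D, chr1:167518480-167518779 (minus) for CD247 and chr1:32251015-32251314 (plus) for LCK, each printed 5′ to 3′ on the gene's strand. Capitals mark AGGAAG or its reverse complement CTTCCT, a core that ETS-family factors bind, in the first 3 windows, and CCCNNGGG, the core of the EBF1 motif, in the LCK window.
PRF1: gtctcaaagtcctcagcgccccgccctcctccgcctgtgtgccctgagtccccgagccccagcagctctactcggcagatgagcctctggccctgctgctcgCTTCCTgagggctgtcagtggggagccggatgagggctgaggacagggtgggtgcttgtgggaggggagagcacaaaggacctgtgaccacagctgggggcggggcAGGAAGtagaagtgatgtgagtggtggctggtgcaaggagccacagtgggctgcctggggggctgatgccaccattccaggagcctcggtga
CD3D: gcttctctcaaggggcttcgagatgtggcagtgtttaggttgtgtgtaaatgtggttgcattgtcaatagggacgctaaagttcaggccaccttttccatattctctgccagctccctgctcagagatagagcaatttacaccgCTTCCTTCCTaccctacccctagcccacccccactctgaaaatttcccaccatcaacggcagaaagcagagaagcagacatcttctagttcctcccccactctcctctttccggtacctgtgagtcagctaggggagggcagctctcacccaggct
CD247: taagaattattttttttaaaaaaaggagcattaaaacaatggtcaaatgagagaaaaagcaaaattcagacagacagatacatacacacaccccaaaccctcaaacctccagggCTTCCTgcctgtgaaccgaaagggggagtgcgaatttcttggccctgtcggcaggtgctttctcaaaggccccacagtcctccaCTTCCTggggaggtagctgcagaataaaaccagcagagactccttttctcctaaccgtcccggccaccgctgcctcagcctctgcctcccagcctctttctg
LCK: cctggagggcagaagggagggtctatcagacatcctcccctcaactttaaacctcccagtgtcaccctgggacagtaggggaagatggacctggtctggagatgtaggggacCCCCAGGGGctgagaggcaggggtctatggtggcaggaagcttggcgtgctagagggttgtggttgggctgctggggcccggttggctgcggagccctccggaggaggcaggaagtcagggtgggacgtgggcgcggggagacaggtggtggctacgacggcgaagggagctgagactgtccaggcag

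The core CCCNNGGG was in 3 of 10 windows, 1 of LCK and 2 of ZAP70, against 19.1% of 35114 RefSeq windows of this length. In the LCK window a pair of core matches overlaps, starting 138 and 137 bases before the start site. AGGAAG was in 7 of 10 windows, against 33.7% of all windows, and CANNTG, the E-box letters, in 8 of 10 against 68.7%. The 7 windows with AGGAAG belong to 6 of the 7 genes. LCK and ZAP70 have more than 1 window each, so the windows are not separate genes, and no share over genes was taken. Both strands were searched, and each match is a run of letters, not a measured binding site. The matches of PRF1 begin 148 and 42 bases before its start, those of CD3D, which overlap, 106 and 102 bases before, and those of CD247 136 and 52 bases before.

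The EBF1 row, which also lists PDGFRB, followed the labels. It averaged 12.96 ± 0.027 in L-428 tGFP/EBF1 and 8.45 ± 0.16 in L-428 tGFP, and 13.15 ± 0.11 in L-1236 tGFP/EBF1 and 7.17 ± 0.057 in L-1236 tGFP (log2 value, SD, n = 3 each). MS4A1, which encodes the B-cell antigen CD20, lay between 5.86 and 5.89 in the 4 group means, and TNFRSF8, which encodes the Hodgkin marker CD30, between 9.57 and 10.42. TNFRSF8 rose with EBF1 in L-1236 by 0.51 (limma, adjusted p = 6.54e-05). Of 8 Hodgkin markers, 1 rose with EBF1 in L-428 and 3 in L-1236, and 0 fell in either line by limma. At an unadjusted p under 0.05, 1 was lower in L-428 and 0 in L-1236. The rise in L-428 was that of CCL22 (1.03; limma, adjusted p = 1.41e-08), which also rose in L-1236 (1.53; limma, adjusted p = 2.46e-11). CCL22 was the only Hodgkin marker called past 2-fold with EBF1 in either line. PAX5, the B-cell identity factor, lay between 7.67 and 9.51, and CD79A, a chain of the B-cell receptor, rose with EBF1 by 0.23 in L-428 (limma, adjusted p = 0.0346) and by 1.18 in L-1236 (limma, adjusted p = 2.75e-10). Of all rows, 4.34% were called with EBF1 in L-428 and 9.64% in L-1236. CD79A was the only call among 7 measured B-cell markers in L-428 by limma, with none lower (2 higher and 0 lower at an unadjusted p under 0.05). In L-1236 the same markers gave 2 rises and 1 fall, the other rise being CD79B (0.26) and the fall CD22, an inhibitory co-receptor of B cells (-0.40; limma, adjusted p = 0.00119); both were named after their values were seen. PAX5 differed by 0.20 in L-428 and by -0.14 in L-1236, and neither passed (limma, adjusted p = 0.0724 and 0.187). Of 8 myeloid marker genes, 0 passed the test in either EBF1 comparison by limma (0 at an unadjusted p under 0.05), and their mean level per array lay between 6.48 and 6.77. Replicate 3 of L-428 tGFP and replicate 1 of L-1236 tGFP/EBF1 stand apart in the spread of their values, with interquartile ranges of 2.28 and 2.17 where the other arrays of their groups had 2.47 to 2.49 and 2.26 to 2.31. Replicate 3 was the highest of its group in 8 of the 10 genes and in 66.8% of dim rows, and replicate 1 the highest of its group in 7 and in 61.2% of dim rows. Calls among the 10 genes that rest on these arrays are given with and without them.

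**Figure D1:**
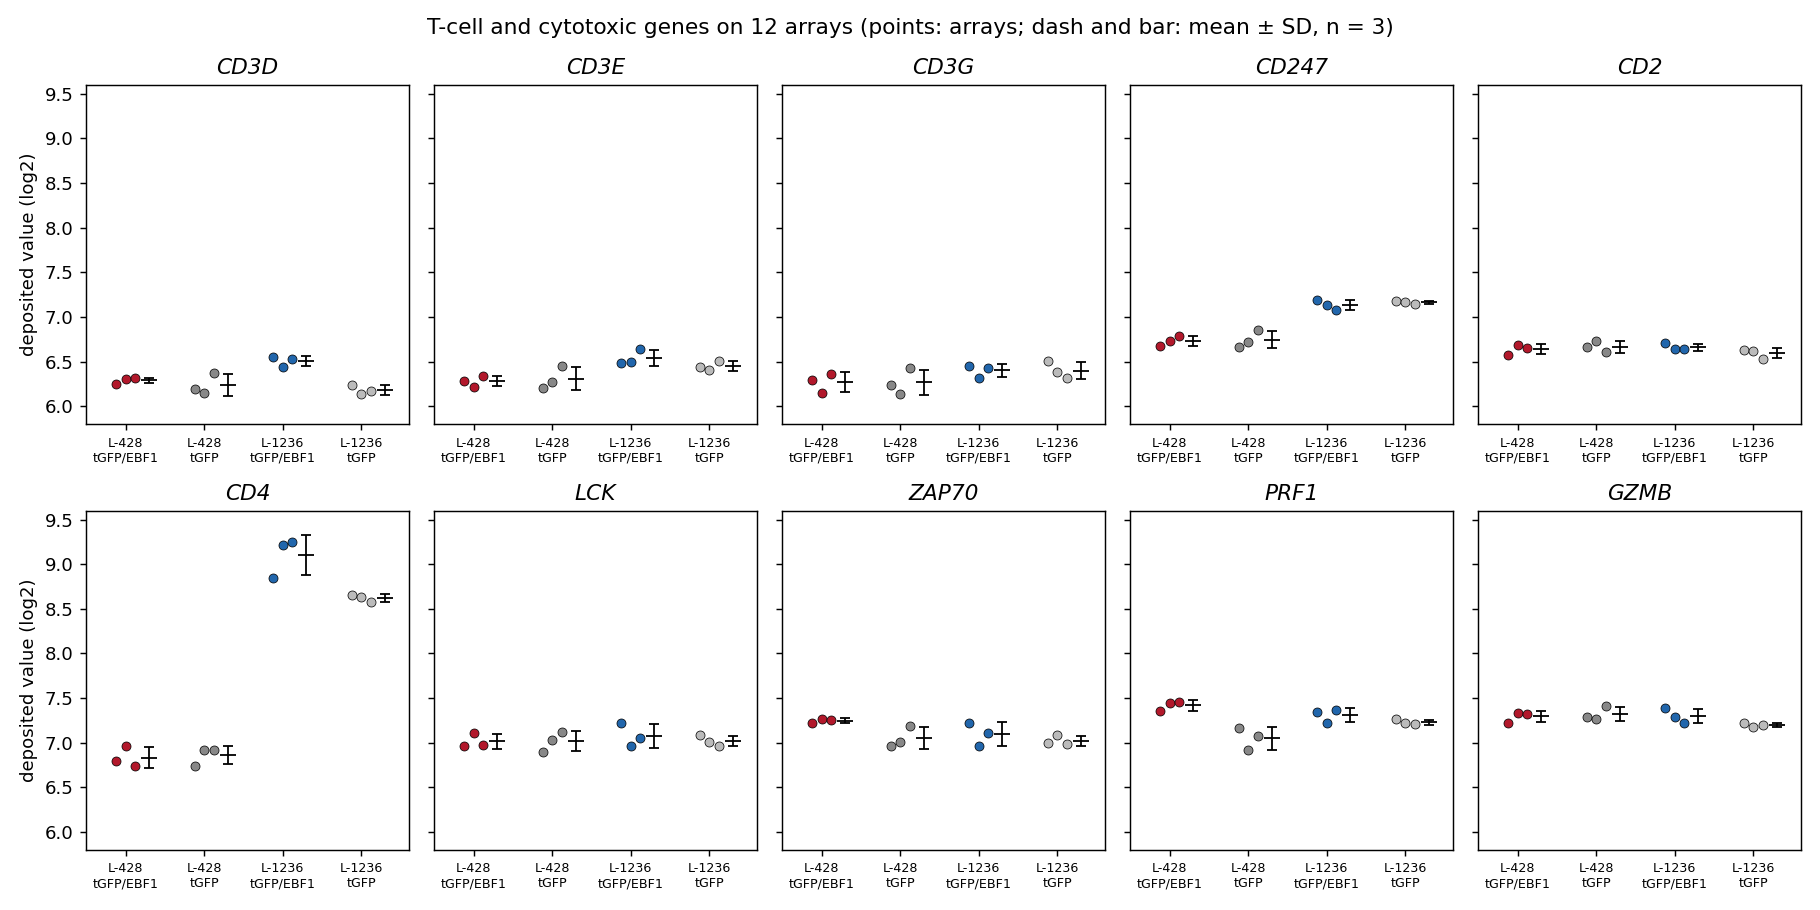
Deposited log2 value (vertical axis) of each of the 10 genes on the 12 arrays, 1 panel per gene, with points for single arrays and a dash and bar for the group mean ± SD (n = 3). CD4 lies between 8.58 and 9.24 on the 6 L-1236 arrays and between 6.74 and 6.96 on the 6 L-428 arrays, while the group means of the other genes span between 0.062 and 0.43. Levels of different genes are not to be compared.

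CD4 was the gene whose level differed most among the 4 groups. Its group means spanned 2.27 on the log2 scale, a span of 1 or more being found in 1 of the 10 genes and in 9.89% of all rows with a symbol. The other genes spanned between 0.062 (LCK) and 0.43 (CD247), and the median span of the 10 was 0.245, against 0.255 over all rows. CD3D, CD3E, CD3G, CD247, CD2 and LCK lay below the median of all rows on all 12 arrays, as did 34.8% of rows with a symbol. ZAP70 was below it on 9 arrays, PRF1 on 7, CD4 on 6 (every L-428 array) and GZMB on 4. No detection call is among the values used here, so these levels do not show whether a gene was expressed.

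The first question was whether EBF1 moved these genes in L-428. PRF1 was the gene that rose. It had log2 values of 7.35, 7.45 and 7.45 in L-428 tGFP/EBF1, against 7.16, 6.91 and 7.07 in L-428 tGFP. All 3 arrays with EBF1 lay above all 3 controls. The rise was 0.37 on the log2 scale (SE 0.068, 95% interval 0.23 to 0.51), or 1.29-fold (limma, adjusted p = 0.0029), and 0.38 without both arrays that stand apart (adjusted p = 0.0034). With a call defined as an adjusted p no greater than 0.05, PRF1 was 1 of 10 genes called, where 4.34% of all rows were called (2.62% higher and 1.72% lower), and 0 of the 10 also reached the study's 2-fold limit, which 0.0973% of rows did. In such bulk RNA, a change in the number of cells with a transcript and a change in its amount per cell cannot be told apart.

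ZAP70, the kinase that binds the phosphorylated receptor chains, had 7.22, 7.27 and 7.25 in L-428 tGFP/EBF1, against 6.96, 7.01 and 7.19 in L-428 tGFP. These arrays did not overlap either, as was so for 18.3% of all rows (11.3% with EBF1 higher), but the difference of 0.19 (interval 0.04 to 0.35) did not pass (limma, adjusted p = 0.18). Without replicate 3 of L-428 tGFP, the highest of the controls, it was 0.26 and passed (limma, adjusted p = 0.0349), and without both arrays that stand apart the adjusted p was 0.00877. The other 8 genes had differences between -0.03 and 0.048 in L-428. For the 9 genes that did not pass, the 95% intervals lay within -0.22 and 0.35, so changes of up to those sizes are not excluded. The median over the 10 genes was -0.0085, against 0.0037 over all rows, and 4 of the 10 estimates were above 0. Without replicate 3 of L-428 tGFP the median was 0.045, against 0.010 over all rows, and 9 of 10 were above 0, so the sign of the median rests on that array.

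GZMB, whose protein travels through the pores that perforin makes, did not pass beside PRF1. It had 7.22, 7.34 and 7.33 in L-428 tGFP/EBF1, against 7.29, 7.26 and 7.42 in L-428 tGFP, and the groups overlapped. Its difference was -0.03 (interval -0.16 to 0.10; limma, adjusted p = 0.944). LCK, which phosphorylates the receptor chains, had 6.96, 7.11 and 6.97 in L-428 tGFP/EBF1, against 6.90, 7.04 and 7.12 in L-428 tGFP, again with overlap. CD4 had 6.80, 6.96 and 6.74 in L-428 tGFP/EBF1, against 6.74, 6.91 and 6.92 in L-428 tGFP, and differed by -0.03 (interval -0.22 to 0.17; limma, adjusted p = 0.976).

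In L-1236, CD4 and CD3D rose with EBF1. CD4 had log2 values of 8.84, 9.22 and 9.24 in L-1236 tGFP/EBF1, against 8.66, 8.63 and 8.58 in L-1236 tGFP. Every array with EBF1 lay above every control, and the lowest, replicate 1, is one of the arrays that stand apart. The rise was 0.48 (SE 0.091, interval 0.29 to 0.67), or 1.39-fold (limma, adjusted p = 0.00165). Leaving out single arrays gave rises between 0.41 and 0.61, the largest of them without replicate 1. Without both arrays that stand apart it was 0.61 (limma, adjusted p = 2.46e-05).

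CD3D, a signalling chain that pairs with CD3E in the receptor complex, had 6.55, 6.44 and 6.53 in L-1236 tGFP/EBF1, against 6.24, 6.13 and 6.17 in L-1236 tGFP. The groups did not overlap, and the rise was 0.32 (SE 0.065, interval 0.19 to 0.46), or 1.25-fold (limma, adjusted p = 0.00271), and 0.30 without both arrays that stand apart (adjusted p = 0.00121). CD3E itself had 6.49, 6.49 and 6.64 in L-1236 tGFP/EBF1, against 6.44, 6.40 and 6.51 in L-1236 tGFP, a difference of 0.09 (interval -0.06 to 0.24; limma, adjusted p = 0.531). With array weights the difference in CD3E was 0.18 and passed (limma, adjusted p = 0.0127). That fit gave replicates 1, 2 and 3 of L-1236 tGFP/EBF1 weights of 0.34, 0.50 and 3.86, and replicate 3 held the highest CD3E value. Leaving out single arrays gave differences in CD3E between 0.040 and 0.12, and none of them passed. CD3G, the third CD3 chain, differed by 0.0016 and CD247 by -0.03, and whether the chains' changes differ from each other was not tested. Of the 10 genes, 2 passed, both higher, where 9.64% of all rows passed (3.69% higher and 5.95% lower), and 0 reached 2-fold, as 0.146% of rows did.

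CD2, an adhesion receptor, and GZMB also had all 3 arrays of L-1236 tGFP/EBF1 above all 3 of L-1236 tGFP, which made 4 of 10 genes with no overlap, against 26.7% of all rows (11.6% with EBF1 higher). CD2 had 6.71, 6.64 and 6.64 in L-1236 tGFP/EBF1, against 6.63, 6.62 and 6.53 in L-1236 tGFP, and the difference of 0.07 did not pass (limma, adjusted p = 0.591). GZMB had 7.38, 7.29 and 7.23 in L-1236 tGFP/EBF1, against 7.22, 7.17 and 7.20 in L-1236 tGFP, a difference of 0.10 (limma, adjusted p = 0.39). PRF1, the gene that rose in L-428, had 7.34, 7.23 and 7.37 in L-1236 tGFP/EBF1, against 7.26, 7.22 and 7.21 in L-1236 tGFP. Those arrays overlapped, and the difference was 0.08 (interval -0.06 to 0.22; limma, adjusted p = 0.565). For the 8 genes that did not pass in L-1236, the intervals lay within -0.16 and 0.24. The estimate was above 0 in 9 of the 10 genes, against 53.4% of all rows, with a median of 0.079 against 0.0080. Without replicate 1 of L-1236 tGFP/EBF1 it was above 0 in 7 of the 10, against 48.1% of all rows, with a median of 0.054 against -0.0044, with CD3G, CD247 and LCK below 0 and GZMB at 0.063.

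**Figure D2:**
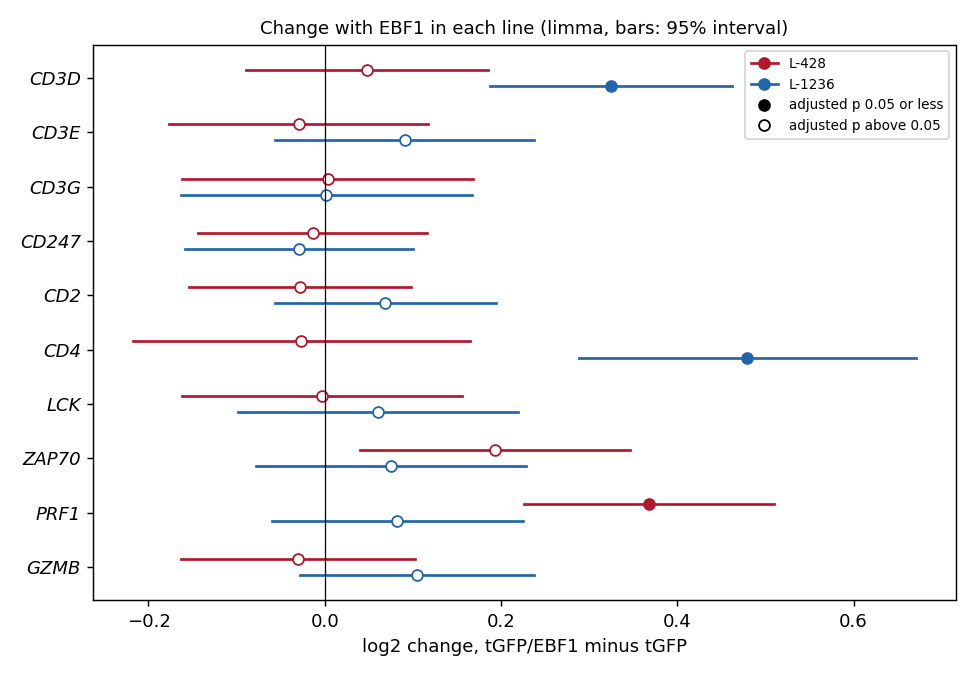
Log2 change with EBF1 (horizontal axis, tGFP/EBF1 minus tGFP) of the 10 genes in L-428 and in L-1236, with points for the limma estimate, bars for its 95% interval and filled points for an adjusted p of 0.05 or less. PRF1 is filled at 0.37 in L-428, and CD4 at 0.48 and CD3D at 0.32 in L-1236.

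Passing in 1 line and not in the other does not show that the lines differ, so the difference of the EBF1 effects (L-428 minus L-1236) was tested itself. CD4 was the gene that passed, with a difference of -0.51 (SE 0.13, interval -0.78 to -0.24; limma, adjusted p = 0.0265), where 5.16% of all rows passed (3.38% higher and 1.79% lower). The effect of EBF1 on CD4 was thus lower in L-428 (-0.03) than in L-1236 (0.48). This call was lost under median centring (adjusted p = 0.0753), with every row of the table tested (0.0897), and in 8 of the 12 fits that left out 1 array. Those were the fits without replicate 2 or 3 of L-428 tGFP, replicate 1 or 3 of L-428 tGFP/EBF1, replicate 2 or 3 of L-1236 tGFP, or replicate 2 or 3 of L-1236 tGFP/EBF1, with adjusted p-values between 0.0528 and 0.0875. Over all 12 such fits the difference lay between -0.64 and -0.43. Without both arrays that stand apart it was -0.61 (limma, adjusted p = 0.0012). The EBF1 row itself rose less in L-428 (4.51) than in L-1236 (5.97), a difference of -1.46 (limma, adjusted p = 1.15e-07). Its tGFP controls were higher in L-428 by 1.27 (limma, adjusted p = 3.52e-11). Whether this bears on the difference in CD4 was not tested.

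For PRF1 the difference of effects was 0.29 (interval 0.08 to 0.49) and did not pass (limma, adjusted p = 0.102), except under quantile normalization, with array weights, and without replicate 1 of L-428 tGFP (0.34, adjusted p = 0.0467). CD3D had -0.28 (interval -0.47 to -0.08; limma, adjusted p = 0.0997) and passed under quantile normalization (-0.23, adjusted p = 0.0463) and with array weights. The intervals of the 9 genes that did not pass lay within -0.47 and 0.49. Neither PRF1 nor CD3D was therefore shown to respond to EBF1 in 1 line more than in the other.

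Between the lines, CD4 was far lower in L-428 than in L-1236. With tGFP alone the difference was -1.76 (interval -1.96 to -1.57), which is 3.40-fold lower in L-428 (limma, adjusted p = 5.6e-12). With EBF1 it was -2.27 (interval -2.46 to -2.08), or 4.82-fold lower (limma, adjusted p = 1.31e-13). The 6 L-428 arrays lay between 6.74 and 6.96 and the 6 L-1236 arrays between 8.58 and 9.24. CD4 was the only 1 of the 10 genes past 2-fold in either comparison of the lines, where 3.04% of all rows were lower by that rule with tGFP and 2.8% with EBF1.

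CD247, the chain with the most phosphorylation motifs of the receptor complex, was also lower in L-428. It had 6.68, 6.72 and 6.79 in L-428 tGFP/EBF1 and 6.66, 6.72 and 6.85 in L-428 tGFP, against 7.19, 7.13 and 7.08 in L-1236 tGFP/EBF1 and 7.18, 7.17 and 7.15 in L-1236 tGFP. No L-428 array reached an L-1236 array. The difference was -0.42 with tGFP (1.34-fold lower; limma, adjusted p = 1.02e-05) and -0.40 with EBF1 (1.32-fold lower; limma, adjusted p = 1.53e-05). CD247 and CD4 passed in both comparisons of the lines, and CD3E in the one with EBF1, in every alternative fit in which they were tested.

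PRF1 was lower in L-428 with tGFP alone, averaging 7.05 ± 0.13 in L-428 tGFP and 7.23 ± 0.029 in L-1236 tGFP (SD, n = 3 each). The difference of -0.18 passed narrowly (limma, adjusted p = 0.0345). It no longer passed without replicate 2 of L-428 tGFP (-0.11, adjusted p = 0.22), nor without replicate 1, 2 or 3 of L-1236 tGFP (adjusted p between 0.0569 and 0.105). With EBF1 in both lines PRF1 averaged 7.42 ± 0.058 in L-428 tGFP/EBF1 and 7.31 ± 0.076 in L-1236 tGFP/EBF1, and the difference of 0.11 did not pass (limma, adjusted p = 0.215). The 3 genes called with tGFP, all lower in L-428, stand against 47.9% of all rows (26.1% higher and 21.7% lower). Without replicate 3 of L-428 tGFP, CD3E (-0.21, adjusted p = 0.0104) and CD3G (-0.21, adjusted p = 0.0259) passed too, which made 5 genes. Under quantile normalization and under median centring the split with tGFP was 1 higher and 2 lower, with GZMB higher (0.18 and 0.19) and PRF1 not called.

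Among cells with EBF1, 4 genes were lower in L-428 (CD4, CD247, CD3E and CD3D), against 50.5% of all rows called (28.2% higher and 22.3% lower). CD3E had 6.28, 6.22 and 6.33 in L-428 tGFP/EBF1, against 6.49, 6.49 and 6.64 in L-1236 tGFP/EBF1, a difference of -0.26 (limma, adjusted p = 0.00374). CD3D had 6.25, 6.30 and 6.31 in L-428 tGFP/EBF1, against 6.55, 6.44 and 6.53 in L-1236 tGFP/EBF1, a difference of -0.22 (limma, adjusted p = 0.00944; 0.0531 under median centring). In both genes the lines did not overlap, and the same 4 genes made up the 4 of 10 with no overlap and L-428 lower, against 28.8% of all rows. The lines also differed in the spread of their values. With EBF1 the interquartile ranges of replicates 1, 2 and 3 were 2.47, 2.41 and 2.44 in L-428 and 2.17, 2.31 and 2.26 in L-1236. The 8 myeloid markers had a median difference of -0.10 there, against -0.031 over all rows, with 0 called higher and 1 lower. Whether the spread bears on small differences in dim rows was not tested. In tGFP controls CD3D had 6.20, 6.15 and 6.38 in L-428, against 6.24, 6.13 and 6.17 in L-1236, with overlap and a difference of 0.06 (limma, adjusted p = 0.499). Quantile normalization gave 2 higher and 4 lower with EBF1 and median centring 2 higher and 3 lower, ZAP70 (0.23 in both) and PRF1 (0.18 in both) being the genes that became higher. With all arrays ZAP70 had 0.15 (limma, adjusted p = 0.0918), and it passed without replicate 1 of L-1236 tGFP/EBF1 (0.22; limma, adjusted p = 0.0213). It also passed without replicate 3 of L-428 tGFP (limma, adjusted p = 0.0482). That array is in neither group compared, so the difference stayed at 0.15 and only the shared spread and the adjustment changed.

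**Figure D3:**
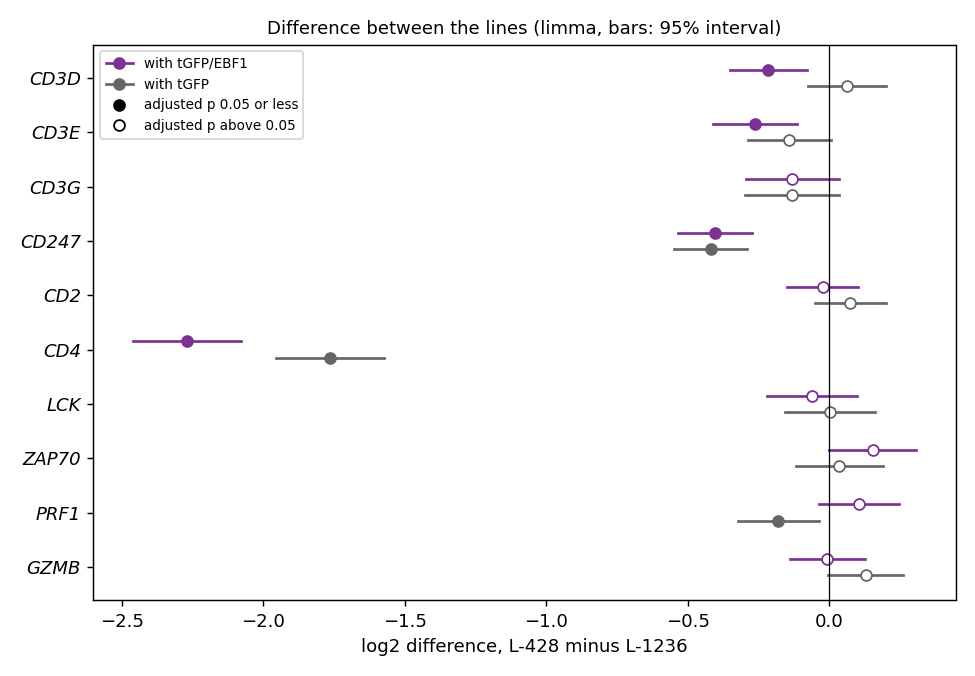
Log2 difference between the lines (horizontal axis, L-428 minus L-1236) of the 10 genes among EBF1-transduced cells and among tGFP controls, with points for the limma estimate, bars for its 95% interval and filled points for an adjusted p of 0.05 or less. CD4 lies at -2.27 and -1.76 and CD247 at -0.40 and -0.42, and every other gene lies between -0.26 and 0.15.

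The order of the levels can be read gene by gene. For CD4 it was L-1236 tGFP/EBF1 (9.10 ± 0.23), L-1236 tGFP (8.62 ± 0.043), L-428 tGFP (6.86 ± 0.099) and L-428 tGFP/EBF1 (6.83 ± 0.12), where only the last neighbours did not differ beyond their spread. For CD247 both L-1236 groups (7.13 ± 0.052 with EBF1 and 7.16 ± 0.016 with tGFP) stood above both L-428 groups (6.73 ± 0.054 with EBF1 and 6.74 ± 0.098 with tGFP), and EBF1 and control cells of a line did not differ beyond their spread. For PRF1 the highest was L-428 tGFP/EBF1 and the lowest L-428 tGFP, with both L-1236 groups between them. For CD3D it was L-1236 tGFP/EBF1 (6.50 ± 0.057), above L-428 tGFP/EBF1 (6.29 ± 0.031), L-428 tGFP (6.24 ± 0.12) and L-1236 tGFP (6.18 ± 0.054), where each of the last 3 overlaps its neighbour. CD2, LCK, CD3G and GZMB spanned between 0.062 and 0.13 over the 4 groups.

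The rows whose pattern was most like that of CD4 were found by the root mean square difference of centred log2 values over the 12 arrays, among 19157 other rows with 1 symbol (median 1.02). They were ERAP2, an aminopeptidase that trims peptides for MHC class I (0.083), PRRT3 (0.12) and PTPN13, a protein tyrosine phosphatase (0.12). ERAP2 averaged 7.44 in L-428 tGFP/EBF1, 7.52 in L-428 tGFP, 9.72 in L-1236 tGFP/EBF1 and 9.30 in L-1236 tGFP. Each of the 3 had the low L-428 levels and the rise in L-1236 that their likeness to CD4 brings with it. The rises in L-1236 were 0.42 in ERAP2, 0.53 in PRRT3 and 0.56 in PTPN13, and in L-428 the differences were -0.084, 0.076 and -0.0033, given in the same order of genes.

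**Figure D4:**
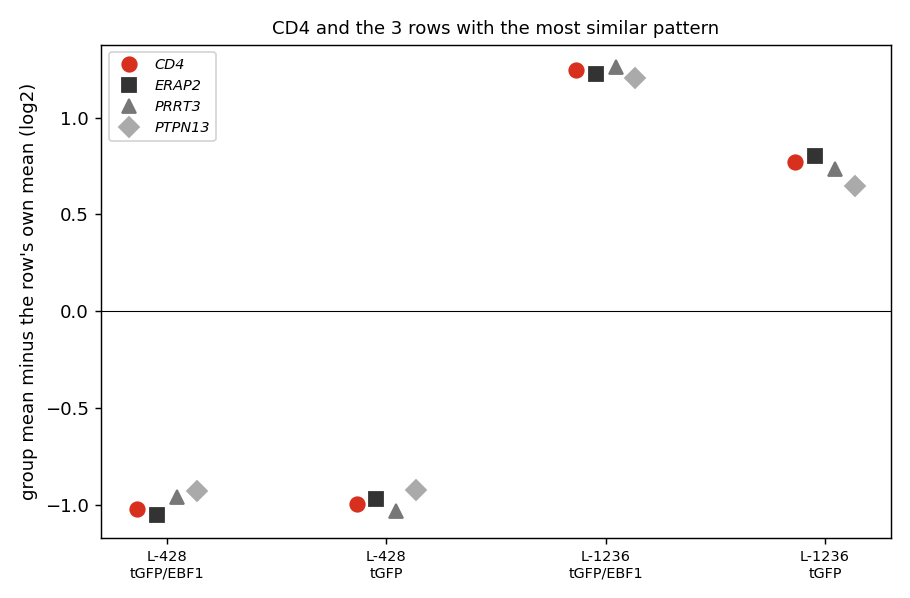
Group mean of CD4, ERAP2, PRRT3 and PTPN13 (vertical axis, log2 value minus each row's own mean over the 12 arrays) in the 4 groups (horizontal axis), with 1 symbol per gene. All 4 genes are low in both L-428 groups, highest in L-1236 tGFP/EBF1 and lower in L-1236 tGFP, and the root mean square differences from CD4 over single arrays are 0.083, 0.12 and 0.12.

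The pathway around these genes was described through lists of further genes. Of 28 further T-cell receptor signalling and T-cell surface genes, 26 were measured. In L-428, 4 rose with EBF1 and 0 fell by limma (3 were lower at an unadjusted p under 0.05), and in L-1236, 5 rose and 1 fell. These calls were 15.4% of the list in L-428 and 23.1% in L-1236, against 4.34% and 9.64% of all rows. The medians of the list were -0.0044 and -0.0024, near those of all rows. Among the genes called in neither line were CD5, CD6, CD7, CD8A, CD8B, CD28, CTLA4 and ICOS, with group means between 5.77 and 8.67. LCP2, the adaptor SLP-76 that ZAP70 phosphorylates, averaged 7.40 ± 0.030 in L-428 tGFP/EBF1 and 6.86 ± 0.080 in L-428 tGFP, and 10.32 ± 0.12 in L-1236 tGFP/EBF1 and 9.77 ± 0.046 in L-1236 tGFP (SD, n = 3 each). The rise was 0.54 in L-428 (limma, adjusted p = 5.71e-05) and 0.55 in L-1236 (limma, adjusted p = 1.73e-05). PAG1, a membrane adaptor that recruits the kinase CSK, which restrains LCK, was higher with EBF1 by 0.50 in L-428 (limma, adjusted p = 0.000161) and by 0.51 in L-1236 (limma, adjusted p = 4.96e-05). The other 2 rises in L-428 were THEMIS, a T-cell signalling protein needed for thymocyte selection (0.34), and FYN, a kinase related to LCK (0.33). Without both arrays that stand apart, 4 genes of the list rose and 3 fell in L-428.

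PLCG1, the phospholipase that carries the receptor's signal to calcium, averaged 9.91 ± 0.077 in L-1236 tGFP/EBF1 and 9.24 ± 0.044 in L-1236 tGFP, and rose by 0.67 (limma, adjusted p = 2.85e-06). SH2D1A, the adaptor SAP, fell in L-1236 (-0.30; limma, adjusted p = 0.00706). The difference of the EBF1 effects passed in 4 genes of the list, or 15.4%, against 5.16% of all rows. FYN (0.46) and THEMIS (0.37) had the higher effect in L-428, and PLCG1 (-0.82) and PTPRC, the phosphatase CD45 (-0.67), in L-1236. THEMIS no longer passed under median centring (0.39; limma, adjusted p = 0.0743), where the split was 1 and 2.

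Between the lines, 5 genes of this list were higher and 6 lower in L-428 with tGFP, and 6 were higher and 5 lower with EBF1. That is 42.3% of the list in each comparison, below the 47.9% and 50.5% of all rows called. THEMIS averaged 10.81 ± 0.093 in L-428 tGFP and 6.30 ± 0.082 in L-1236 tGFP, a difference of 4.51 (limma, adjusted p = 2.79e-19). In the opposite direction, LCP2 differed by -2.91 (limma, adjusted p = 3.71e-17) and PTPRC by -1.20 (limma, adjusted p = 7e-10). PAG1 (1.47) and PTPN22 (1.45), a phosphatase that acts on LCK and ZAP70, were higher in L-428.

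Cytotoxic granule genes other than PRF1 and GZMB gave no common direction. Values were had for 17 of 18. In L-428 there were 0 rises and 2 falls by limma (1 and 3 at an unadjusted p under 0.05), and in L-1236 2 rises and 3 falls, with medians of -0.011 and 0.035. Those calls were 11.8% of the list in L-428 and 29.4% in L-1236, against 4.34% and 9.64% of all rows. SERPINB9, the inhibitor of granzyme B, fell in both lines. It averaged 10.49 ± 0.033 in L-428 tGFP/EBF1 and 11.02 ± 0.17 in L-428 tGFP (-0.52; limma, adjusted p = 0.000146), and 7.57 ± 0.058 in L-1236 tGFP/EBF1 and 8.0 ± 0.029 in L-1236 tGFP (-0.42; limma, adjusted p = 0.000598). SRGN, the proteoglycan that packs granule contents, fell in L-428 (-0.32; limma, adjusted p = 0.0358), but not under median centring (adjusted p = 0.169).

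In L-1236, GZMH, a granzyme gene neighbouring GZMB, rose (0.36; limma, adjusted p = 0.00523), as did CTSC, the protease that activates granzymes (0.31; limma, adjusted p = 0.0185). RAB27A and STXBP2, both needed for granule release, fell there (both -0.23; limma, adjusted p = 0.0477 and 0.0283). The calls of CTSC, RAB27A and STXBP2 were lost under median centring, where the split was 1 higher and 1 lower, and RAB27A also under quantile normalization, where it was 3 and 2. The difference of the EBF1 effects passed in RAB27A (0.38) and CTSC (-0.52), and CTSC lost it under median centring (adjusted p = 0.0705). These 2 genes were 11.8% of the list, against 5.16% of all rows.

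Between the lines with tGFP, 4 granule genes were higher and 2 lower in L-428 (6 and 1 under median centring), or 35.3% of the list against 47.9% of all rows. SERPINB9 was higher by 3.02 (limma, adjusted p = 6.12e-17) and STX11, a syntaxin of granule release, by 1.76 (limma, adjusted p = 2.01e-12). With EBF1, 3 were higher and 4 lower (4 and 2 under median centring), or 41.2% against 50.5% of all rows, and GZMH (-0.49) and CTSC (-0.53) were among the lower ones.

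Of 16 natural killer receptor and adaptor genes, 15 were measured on rows of their own. In L-428, 2 rose and 1 fell with EBF1, and in L-1236 2 rose and 0 fell by limma, as 0 were lower at an unadjusted p under 0.05. That is 20% of the list in L-428 and 13.3% in L-1236, against 4.34% and 9.64% of all rows. HCST, the adaptor DAP10, averaged 8.02 ± 0.052 in L-428 tGFP/EBF1 and 7.76 ± 0.046 in L-428 tGFP (0.26; limma, adjusted p = 0.0161), and 8.47 ± 0.088 in L-1236 tGFP/EBF1 and 7.91 ± 0.034 in L-1236 tGFP (0.56; limma, adjusted p = 4.65e-06). KLRG1, which encodes an inhibitory receptor, was higher with EBF1 by 0.26 in L-428 (limma, adjusted p = 0.0417) and by 0.33 in L-1236 (limma, adjusted p = 0.00362). CD244, the receptor 2B4, fell in L-428 (-0.31; limma, adjusted p = 0.05). The L-428 split was 1 and 1 under quantile normalization, 1 and 0 under median centring, and 1 and 0 without both arrays that stand apart, with HCST the rise that stayed. The difference of the EBF1 effects passed in 0 of the 15 by limma, where 3 had an unadjusted p under 0.05, and in 1 under quantile normalization. Of all rows, 5.16% passed with the values as deposited.

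Between the lines, 3 natural killer genes were higher and 1 lower in L-428 with tGFP, and 1 higher and 3 lower with EBF1, which is 26.7% of the list in each comparison against 47.9% and 50.5% of all rows. Under quantile normalization these splits were 4 and 0 with tGFP and 3 and 1 with EBF1, and under median centring 5 and 0, and 2 and 1. CD244 was higher in L-428 with tGFP (0.79; limma, adjusted p = 2.95e-07) and with EBF1 (0.45; limma, adjusted p = 0.00023), and HCST lower with EBF1 (-0.45; limma, adjusted p = 3.41e-06).

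T-lineage transcription factors, of which 13 of 14 were measured, gave 1 rise and 1 fall in each line. TBX21, the factor T-bet, which in T cells drives perforin and granzyme genes, averaged 7.91 ± 0.029 in L-428 tGFP/EBF1 and 7.58 ± 0.059 in L-428 tGFP, and rose by 0.32 (limma, adjusted p = 0.00224). In L-1236 TBX21 averaged 7.89 ± 0.046 with EBF1 and 7.85 ± 0.053 with tGFP. The difference of its effects was 0.29 (limma, adjusted p = 0.0482; 0.068 under median centring). TOX, a nuclear factor of thymocyte development, fell in L-428 (-0.48; limma, adjusted p = 0.00147).

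RUNX1 rose in L-1236 (0.79; limma, adjusted p = 6.67e-07), and GATA3, the factor of helper T cells, fell there (-0.46; limma, adjusted p = 0.000635). The difference of the EBF1 effects was -0.99 for RUNX1 and -0.55 for TOX, the second lost under median centring (adjusted p = 0.0544), where 0 passed higher and 1 lower. With TBX21, these were the 3 genes that passed with the values as deposited, or 23.1% of the list, against 5.16% of all rows. The L-428 counts were 2 rises and 4 falls under quantile normalization, 2 and 1 under median centring, and 3 and 5 without both arrays that stand apart, and the L-1236 counts 4 and 1 under quantile normalization. Between the lines with tGFP, all 13 passed, 8 higher and 5 lower in L-428, against 47.9% of all rows. TOX was higher by 3.40, STAT4, a transducer of interleukin-12, by 2.77 and RUNX1 by 2.09, while ETS1, a founding member of the ETS family, was lower (-1.44).

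**Figure D5:**
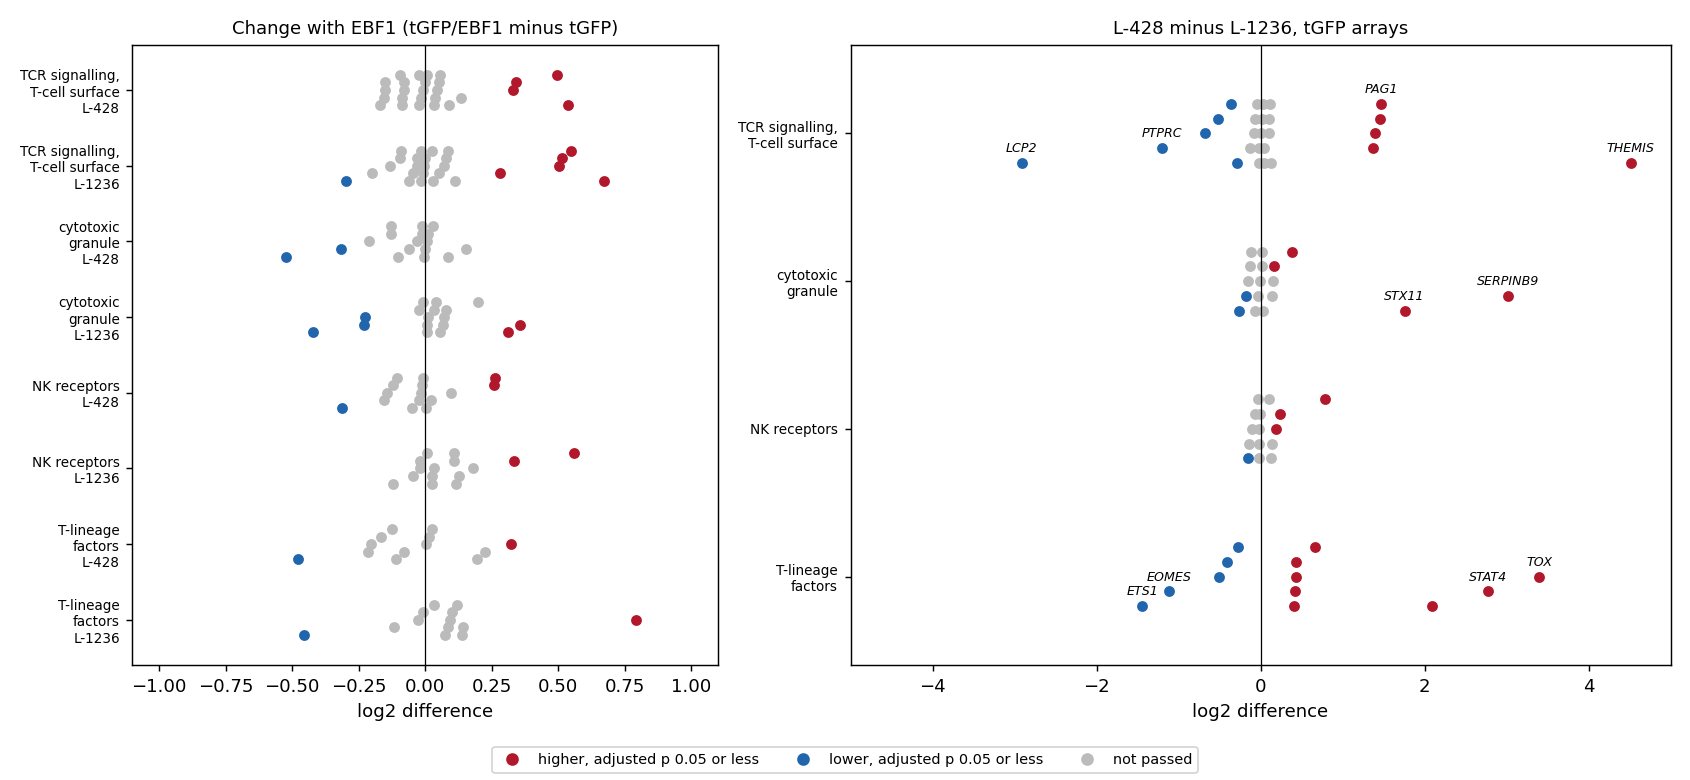
Log2 difference (horizontal axes) of each measured gene of the 4 pathway lists, with EBF1 against tGFP in each line (left) and in L-428 against L-1236 with tGFP (right), with red and blue points for genes that passed limma's test higher or lower and grey for the rest. Coloured points on the left lie between -0.52 (SERPINB9 in L-428) and 0.79 (RUNX1 in L-1236), and on the right between -2.91 (LCP2) and 4.51 (THEMIS).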

How the data were processed

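RNA of sorted cells was extracted and amplified with the WT Expression Kit and labelled with biotin, per the labels' protocols. The authors deposited 1 log2 value per row and array, between 4.38 and 14.3, while their log base, their summarization and their normalization are not stated in those sources, base 2 being taken from the range of the values. The tests covered 20546 rows with a gene symbol, 19158 with 1 symbol and 1388 with several, and 11775 rows have none. Row names come from the platform annotation, and all 10 genes matched the RefSeq table of GRCh38.p14 by gene ID.

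The values were fitted as deposited in limma 3.58.1 under R 4.3.3 (lmFit, eBayes, 8 residual and 9.98 prior degrees of freedom, median SE 0.069), with 4 group means and no block. Benjamini-Hochberg adjustment ran over all 20546 rows within each of 5 contrasts, and a call is an adjusted p of 0.05 or less. The design text names a false discovery rate of 5% and 2-fold, given beside the counts. Correlations between arrays were 0.993 to 0.998 within groups and 0.914 to 0.924 between the lines. The fit was tested on simulated data.

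Members, gene lists and the arrays that stand apart were chosen with earlier results of these data known. Named were the 10 genes, EBF1, 4 B-cell and Hodgkin markers, up to 3 called genes per pathway list, contrast and direction, and the 3 rows most like any member spanning 1 or more. FYN in L-428 was added so that all 4 calls of its list are named. CCL22 and the T-cell surface genes called in neither line were added after their values were seen. The alternatives changed the scaling (quantile normalization or median centring), the rows (without dim ones, all, or 1 for each symbol), the variance model (trend, robust, weighted arrays, a replicate block), the samples (only the groups compared, each array left out, both arrays that stand apart left out) and the threshold. The list counts under scaling and without both arrays, and the medians of the 10 genes without them, were added after seeing the data. Plots were made in matplotlib 3.10.9 (Python 3.11.15).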

Additional observations from a re-analysis of the deposited data

Results flagged for a closer look

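The effect of EBF1 on CD4 passed the test of a difference between the lines, with a difference of -0.51 on the log2 scale (L-428 minus L-1236; limma, adjusted p = 0.0265). The call was lost under median centring (adjusted p = 0.0753), with every row tested (0.0897) and in 8 of the 12 fits that left out 1 array. EBF1 cells and controls of L-428 overlapped, while all 3 arrays of L-1236 tGFP/EBF1 lay above all 3 of L-1236 tGFP. The cause of the difference was not tested.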

How the results depend on the processing

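Over the 10 genes and 5 contrasts, single values kept their direction where called and their side of the threshold in 1094 of the recomputed fits, 19 lost a call, 27 gained one and 0 calls changed sign. Counts of genes called as reported were 1 for EBF1 in L-428, 2 for EBF1 in L-1236, 1 for the difference of effects, and 4 with EBF1 and 3 with tGFP between the lines. Quantile normalization and array weights each gave 2 in L-428 and 3 for the difference, and array weights 5 between the lines with tGFP. Median centring, every row tested and an adjusted p of 0.01 each gave 0 for the difference. The filter on dim rows left 4 genes tested (CD4, ZAP70, PRF1 and GZMB), so that 1 was called for EBF1 in L-1236 and 1 between the lines with EBF1. Without both arrays that stand apart the counts were 2 in L-428 and 5 between the lines with tGFP. The 2-fold rule gave 0 for both EBF1 contrasts and for the difference, and 1 in each comparison of the lines. Leaving out 1 array gave 1 to 2 in L-428, 2 in every such fit in L-1236, 0 to 2 for the difference, 2 to 5 between the lines with tGFP and 4 to 5 with EBF1. The cause of these shifts was not tested, apart from the filter, which tests fewer genes. Same-numbered arrays of a line correlated between -0.21 and 0.28 in their deviations, and differently numbered ones between -0.35 and 0.31. This check cannot show whether the numbers pair the samples, and the labels do not say so. With a replicate block, 1, 2 and 1 genes were called in L-428, in L-1236 and for the difference. Between the lines the block left 3 genes called with tGFP and 4 with EBF1. Over all rows, 538 were higher and 354 lower with EBF1 in L-428, against 964 and 650 under quantile normalization, 345 and 153 under median centring and 703 and 1281 without both arrays. In L-1236, 759 and 1222 became 1445 and 1618 under quantile normalization and 1222 and 1418 without both arrays, and for the difference 694 and 367 became 1092 and 773 under quantile normalization, 401 and 198 under median centring and 784 and 1113 without both arrays, which turns the split round as in L-428. Between the lines with EBF1, 5795 and 4586 became 6540 and 3300 under median centring. Array weights were estimated gene by gene, since the default method did not converge. Signal over background is not among the values used here, and 6 of the 10 genes lay below the array median throughout, which limits what small differences show.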
